A study of Mus musculus with 6 samples.

Results

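The genes described here encode the constant regions of the immunoglobulin heavy chains (Ighm, Ighd, Ighg1, Ighg2b, Ighg2c, Ighg3, Igha and Ighe), the constant region of the kappa light chain (Igkc) and the J chain (Jchain). They were taken by gene symbol from the RNA-seq values of 3 peripheral T-cell lymphomas (PTCL). Of these 10 genes, 1 had a row among the 34245 genes of the table, by symbol or by Ensembl identifier, and this gene was Jchain. The other 9 were not analysed here, so the shares of the immunoglobulin classes and the ratio of J chain to kappa chain could not be computed. The tumors came from lymph nodes of Dnmt3b+/- mice on the FVB strain, which carry a conventional knockout allele of the DNA methyltransferase Dnmt3b in the germline, so that tumor cells and any other cells of the node share the genotype. The mice were harvested when terminally sick, and their ages are not given in the labels. The labels list 6 samples, of which 3 are whole-genome bisulfite libraries that were not analysed here. No control library was analysed here, and the 3 tumors form 1 group, so all values are descriptions without a test.

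The J chain is a small polypeptide that plasma cells and their precursors add to IgM and IgA as these antibodies assemble into polymers. It lets the polymers bind the polymeric immunoglobulin receptor, which carries them across epithelia into secretions. In the B-cell lineage the gene is kept low by the B-cell factor Pax5 and rises as B cells turn into antibody-secreting cells, a program that runs through Prdm1, Irf4 and Xbp1, and lymph nodes normally hold such cells beside T cells.

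Jchain (ENSMUSG00000067149) lies on the minus strand of chromosome 5 of mm10, from 88519809 to 88527891. Its coding transcript has 4 exons with 1393 bases in GENCODE M21, and a second annotated transcript that retains an intron brings the merged exons to 2517 bases. FPKM relate the fragments on a gene to the length of its exons and to the reads of the library, here over the merged length. The 250 bases before the RefSeq start of Jchain (GRCm38.p6, chr5:88527898-88528147, minus strand, printed 5′ to 3′) are shown because the series is about DNA methylation, which in mammals falls mostly on CG dinucleotides. Capitals mark each CG.

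Jchain upstream window: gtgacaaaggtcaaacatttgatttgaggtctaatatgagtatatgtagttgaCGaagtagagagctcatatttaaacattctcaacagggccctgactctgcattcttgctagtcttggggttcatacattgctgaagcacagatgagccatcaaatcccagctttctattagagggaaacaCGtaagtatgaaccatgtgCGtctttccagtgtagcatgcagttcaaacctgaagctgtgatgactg

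The window holds 3 CG, at 197, 67 and 48 bases before the start. The median over 32851 RefSeq windows of the same length was 6, and 37.8% of the windows held 3 or fewer. G and C made up 42.0% of its bases, against a median of 52.4% over all windows. The octamer motif of immunoglobulin promoters (ATGCAAAT, searched on both strands) was not in this window, and 1.60% of all windows held it. The letters TATAAA were not in it either on either strand, and 12.4% of all windows held them. The methylation of this window was not analysed here.

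Jchain was among the most abundant transcripts of tumor 1 and was present at a high level in all 3 tumors. It measured 814 FPKM in tumor 1, 185 FPKM in tumor 2 and 179 FPKM in tumor 3, with a mean of 393 ± 365 FPKM (SD, n = 3). Tumor 1 thus stood apart from the other tumors, which were close to each other. These values and the ranks that follow rest on the merged exon length. With the coding transcript alone, a length chosen after seeing the data, the mean was 709 FPKM. By FPKM, Jchain was gene number 14 of the table in tumor 1, number 151 in tumor 2 and number 158 in tumor 3. The reads behind these values, recovered from FPKM and exon length, were 62970 in tumor 1, 8836 in tumor 2 and 9335 in tumor 3. The libraries held 30726570, 18969988 and 20770928 reads, so that Jchain took 0.205%, 0.0466% and 0.0449% of them. The 95% Poisson interval, which covers counting error only, was 808 to 821 FPKM in tumor 1, 181 to 189 FPKM in tumor 2 and 175 to 182 FPKM in tumor 3. The ratio of tumor 2 to tumor 3 was 1.04, with a 95% interval from the reads (exact binomial, counting error only) of 1.01 to 1.07. Tumor 1 was 4.40-fold tumor 2, with an interval of 4.30 to 4.50. The small difference between tumors 2 and 3 depends on the scale, with 190 and 188 after median-of-ratios factors, and without replicate libraries of a tumor no other error could be given. In bulk tumors, fewer cells of a type and less RNA per cell cannot be told apart.

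The highest tumor was 4.56-fold the lowest for Jchain at log2(FPKM + 0.1), a difference of 2.19 on the log2 scale. Among 15846 genes above 0.2 FPKM in at least 1 tumor, 14.5% had their highest tumor at least 4-fold their lowest, and 6.86% did so with tumor 1 the highest. Tumor 1 held 69.1% of the Jchain FPKM summed over the tumors, and 12.1% of the same genes had 1 tumor with over 2/3 of the sum. Tumor 1 was the highest tumor for 49.5% of these genes, so being highest in tumor 1 was common. The shares of called genes were lower among abundant genes. Of 259 genes with a mean of at least 100 FPKM, 9.65%, or 25 genes, reached 4-fold. Among these, tumor 1 was the highest only for Jchain, Trbv12-2 and Cd7. The others were highest in tumor 2 or 3, and several ribosomal protein genes among them were lowest in tumor 1. A share of 3.09% of the 259, or 8 genes with Jchain among them, had 1 tumor above 2/3. Both values of Jchain lay close to the thresholds. With median-of-ratios factors in place of the deposited scale, the ratio was 3.997 and the share 66.5%, just below each threshold. Without tumor 1 the ratio was 1.04.

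**Figure D1:**
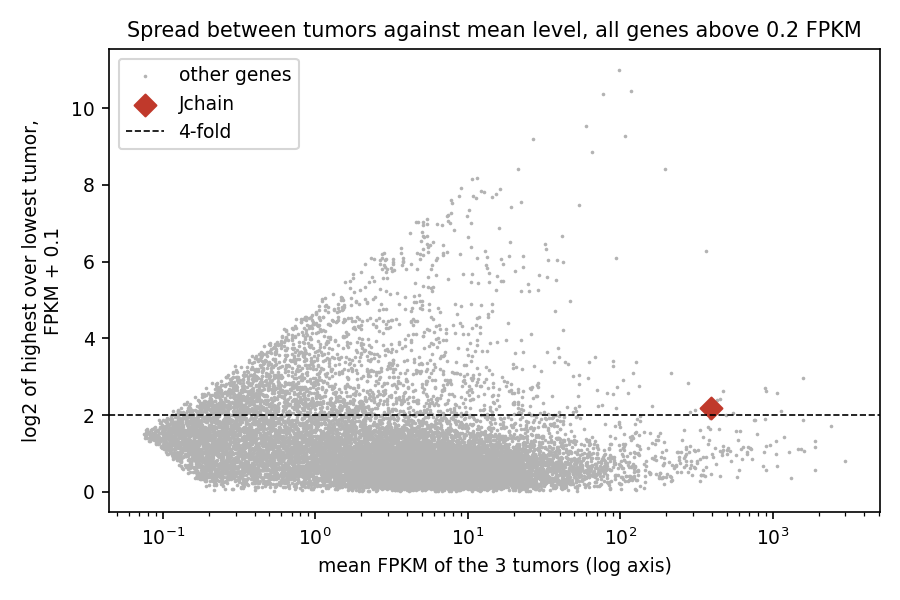
Each point is a gene above 0.2 FPKM in at least 1 tumor, with its mean FPKM over the 3 tumors on a log axis and the log2 ratio of its highest to its lowest tumor (FPKM + 0.1) on the vertical axis. The diamond is Jchain, at a mean of 393 FPKM and a log2 ratio of 2.19, and the dashed line marks 4-fold.

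The labelled tumor type was checked against 15 T-cell markers, which were all above 0.2 FPKM in every tumor with medians of 110, 105 and 104 FPKM in tumors 1, 2 and 3. Cd3e, a chain of the T-cell receptor complex, measured 56.4, 78.1 and 65.3 FPKM. The CD8 chains were abundant, with Cd8b1 at 435, 166 and 443 FPKM and Cd8a at 259, 122 and 218 FPKM. Cd4 was lower, at 28.4, 4.28 and 8.22 FPKM. Lck, the kinase of the T-cell receptor, measured 160, 208 and 207 FPKM. The median of the list thus differed little between tumors. Of its 15 genes 2, Cd4 and Thy1, reached 4-fold, against 14.5% of all genes above 0.2 FPKM in at least 1 tumor. Among the lists described below, 4-fold was reached by 13 of 18 B-cell markers, 11 of 13 myeloid markers and all 18 pancreas genes. It was also reached by 9 of 13 cytokines and ligands, 4 of 15 plasma cell markers and 1 of 15 secretory genes. None of the 14 class switching and germinal center genes or the 10 housekeeping genes reached it. In tumors 2 and 3 the FPKM of Jchain were like those of Lck.

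B-cell transcripts were present at low levels in all 3 tumors, and they were ordered differently from Jchain. Of 18 B-cell markers, none was without a read in any tumor and 16 were above 0.2 FPKM in every tumor. Their median was 3.43 FPKM in tumor 1, 0.600 FPKM in tumor 2 and 4.13 FPKM in tumor 3, and their summed level was 139, 108 and 214 FPKM. Tumor 3 had the highest value for 14 of the 18 genes, against 14.7% of all genes on the deposited scale. This count was 10 after rescaling to a common sum and 15 with median-of-ratios factors. Tumor 2 was below tumor 3 for 16 of the 18, while 57.9% of all genes had tumor 2 above tumor 3. Cd79a, the signaling chain of the B-cell receptor, measured 23.1, 7.31 and 49.0 FPKM, and its partner Cd79b 20.1, 3.72 and 35.5 FPKM. Tumor 2 was lowest for both. Ms4a1, which encodes CD20, measured 3.98, 0.400 and 5.32 FPKM. Pax5 measured 1.75, 0.506 and 2.43 FPKM. The most abundant gene of the list, Cd37, is also made by T cells and varied little, at 39.8, 47.0 and 50.5 FPKM. Cd22, chosen after its values were seen, was an exception with its highest value in tumor 2, at 5.84, 36.5 and 13.9 FPKM.

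The genes of antibody-secreting cells did not share 1 order of the tumors. The 15 plasma cell markers had medians of 3.57, 2.62 and 3.25 FPKM, and 13 of them were above 0.2 FPKM in every tumor. Their summed level was 126, 94.6 and 114 FPKM. Tumor 1 was highest for 6 genes, tumor 2 for 4 and tumor 3 for 5. Over all genes on the deposited scale the shares were 49.5%, 35.8% and 14.7%. The counts of the list moved with the scale, to 9, 3 and 3 after rescaling to a common sum. With median-of-ratios factors they were 2, 5 and 8, and the highest median also moved from tumor 1 to tumor 3. Xbp1, the transcription factor of the secretory program, came nearest to Jchain among them, with 36.3 FPKM in tumor 1, 11.1 FPKM in tumor 2 and 11.3 FPKM in tumor 3. Prdm1, which encodes Blimp-1 and is also made by effector T cells, was nearly level at 3.07, 3.10 and 2.64 FPKM. Irf4 measured 3.57, 0.312 and 3.25 FPKM, low in tumor 2 only. Mzb1, a chaperone of immunoglobulin assembly in the endoplasmic reticulum, measured 11.0, 2.62 and 25.8 FPKM and followed the B-cell genes. Sdc1, which encodes the plasma cell surface marker CD138, was near 1 FPKM or below, with 0.957, 0.595 and 1.09 FPKM. Tnfrsf17, the plasma cell receptor BCMA, rested on 13, 1 and 19 reads. By its mean over the tumors the most abundant gene of the list was the disulfide isomerase Txndc5, with 22.8, 25.5 and 28.5 FPKM, although Xbp1 was above it in tumor 1. Slamf7, which cytotoxic T cells also make, measured 11.0, 22.1 and 7.83 FPKM.

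**Figure D2:**
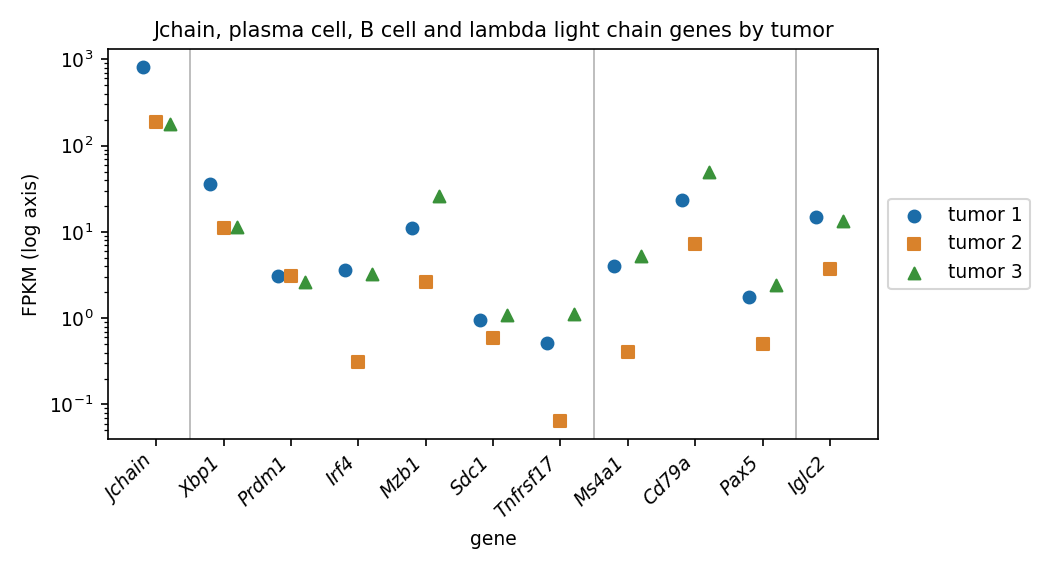
FPKM of Jchain, of 6 plasma cell genes, of 3 B-cell genes and of the lambda light chain gene Iglc2 in tumors 1, 2 and 3, on a log axis, with 1 point per tumor and vertical lines between the groups of genes. Jchain lies above every other gene shown, tumor 2 is lowest for the 3 B-cell genes, and the tumor 2 point of Tnfrsf17 rests on 1 read.

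Set against most of the B-cell genes within a tumor, Jchain was high in tumors 1 and 2 and lower in tumor 3. Jchain per gene was higher in tumor 1 than in tumor 3 for all 18 B-cell markers, and higher in tumor 2 than in tumor 3 for 17 of them. The first count is not particular to B cells, since only 4.54% of all genes rose as much as Jchain from tumor 3 to tumor 1 at FPKM + 0.1, and it was 14 of 15 for the T-cell markers and 10 of 10 for the housekeeping genes. From tumor 3 to tumor 2, 54.3% of all genes had at least the ratio of Jchain. The ratios to the B-cell genes, chosen after the values were seen, do not depend on the scale of a library. Jchain was 238-fold the median of the B-cell list in tumor 1, 308-fold in tumor 2 and 43.2-fold in tumor 3. From tumor 3 to tumor 2 this is a 7.14-fold difference, which was 2.05-fold with the summed level of the list in place of its median. Most of that sum in tumor 2, 108 FPKM, came from Cd37 at 47.0 FPKM and Cd22 at 36.5 FPKM. Over the abundant Cd37 the ratio was 3.94 in tumor 2 and 3.54 in tumor 3, over Cd72 it was 40.0 and 39.2, and over Cd22 it was lower in tumor 2, at 5.07 against 12.9. Over Cd79a the ratio of FPKM was 35.2, 25.3 and 3.65. Over Mzb1 it was 74.0, 70.6 and 6.92. Tumors 1 and 2, which differed 4.40-fold in Jchain itself, were thus close to each other in Jchain per Mzb1. Xbp1 gave another picture, with ratios of 22.4, 16.6 and 15.8, so that Jchain per Xbp1 differed little between the tumors. Over Prdm1 the ratios were 265, 59.7 and 67.6, with tumor 1 alone high. Jchain per gene was also higher in tumor 1 than in tumor 3 for all 15 plasma cell markers. It was higher in tumor 2 than in tumor 3 for 10 of these 15. Tumor 1 was thus above tumor 3 with every B-cell and plasma cell divisor, while the place of tumor 2 depended on the divisor.

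**Figure D3:**
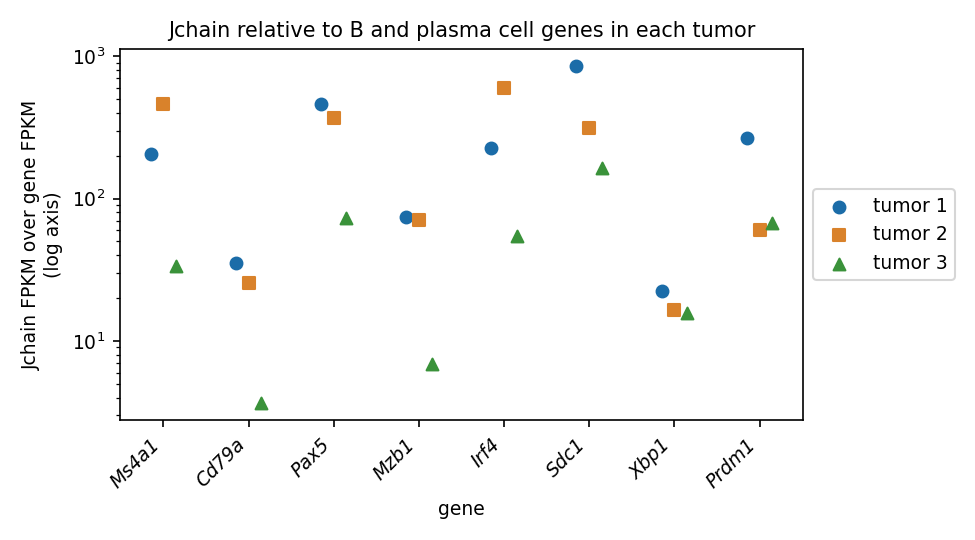
Jchain FPKM divided by the FPKM of 3 B-cell genes (Ms4a1, Cd79a, Pax5) and of 5 plasma cell genes in each tumor, on a log axis. For Cd79a the points lie at 35.2, 25.3 and 3.65 in tumors 1, 2 and 3, and for Xbp1 they lie between 15.8 and 22.4.

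The ratios between tumors were also compared gene by gene over the lists. From tumor 3 to tumor 1, Jchain was 4.56-fold higher at FPKM + 0.1, while 16 of the 18 B-cell markers were lower, with a median ratio of 0.765, and none reached the ratio of Jchain. With FPKM rescaled to a common sum, 13 of the 18 were lower. The median of all 15846 genes was 1.22, with 68.2% above 1, and 4.54% of them reached the ratio of Jchain or more. For the plasma cell markers the median ratio was 1.07, and none of 15 reached that of Jchain. Between tumor 2 and tumor 3, Jchain had a ratio of 1.04, near the median of 1.07 over all genes. The B-cell markers had a median of 0.180 there and the plasma cell markers one of 0.586.

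**Figure D4:**
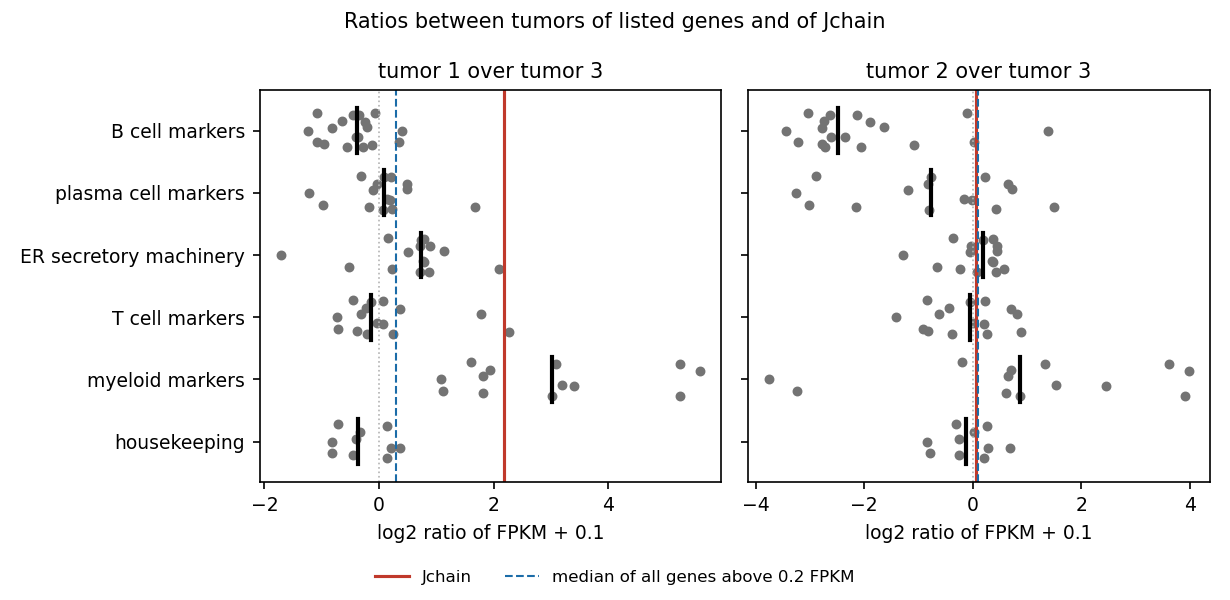
Log2 ratio of FPKM + 0.1 between tumors 1 and 3 (left) and between tumors 2 and 3 (right) for each gene of 6 lists, with a black bar at the median of the list, a solid line at Jchain and a dashed line at the median of all genes above 0.2 FPKM. Jchain lies to the right of all 18 B-cell markers on the left and of all but 1 of them, Cd22, on the right.

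Immunoglobulin loci were represented in the table by few rows beside Jchain. The lambda constant gene Iglc2 measured 15.0, 3.74 and 13.2 FPKM, so it was low in tumor 2 and near equal in tumors 1 and 3. Reads shared with near-identical lambda genes may be lost from it, and its level is uncertain. Jchain was 54.3-fold, 49.5-fold and 13.5-fold Iglc2 in tumors 1, 2 and 3. Of the 7 genes of the light chain list, 4 had a row. Igll1 and Vpreb2, parts of the surrogate light chain of B-cell precursors, had no read in any tumor, and Vpreb1 measured 0.205, 0.568 and 0.433 FPKM. The joining segments Igkj2 and Igkj5, chosen after their values were seen, cover only 43 and 42 bases of the kappa locus. Igkj2 had 149, 12 and 128 reads, and Igkj5 had 137, 19 and 123 reads. Of the 4 joining segments with a row, Igkj3 measured 11.8, 1.46 and 8.02 FPKM, highest in tumor 1. The heavy-chain segment Ighj2 had 4, 0 and 8 reads. Kappa and lambda transcripts were thus found in every tumor and were lowest in tumor 2, where Igkj2 stood at 14.7 FPKM against 113 in tumor 1 and 143 in tumor 3. The 7 variable segments with a row had 5 reads in all in tumor 1, none in tumor 2 and 11 in tumor 3. Ighv6-4 was the highest in tumor 1 with 3 reads and Igkv4-62 in tumor 3 with 8.

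The secretory machinery of the endoplasmic reticulum, which plasma cells enlarge, was somewhat higher in tumor 1. The median of 15 genes was 28.3, 22.5 and 19.0 FPKM, the summed level was 558, 423 and 413 FPKM, and tumor 1 was highest for 12 genes, also with either other scale, against 49.5% of all genes on the deposited scale. The median ratio of tumor 1 to tumor 3 was 1.67 for these genes and 1.22 for all genes. Hsp90b1, a chaperone of this compartment, measured 128, 67.7 and 69.9 FPKM. Hspa5, which encodes BiP, the chaperone that holds unassembled heavy chains, measured 98.4, 87.3 and 58.9 FPKM. Sec61b, a subunit of the translocation channel, went the other way with 47.6, 58.1 and 68.3 FPKM. Ssr4 did so more strongly, with 14.6, 30.3 and 48.2 FPKM, and Creld2 was highest in tumor 2, with 16.2, 19.5 and 14.5 FPKM.

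Genes of class switching and germinal centers were at low levels. The median of the 14 genes was 2.43, 1.73 and 2.24 FPKM, and 13 of them were above 0.2 FPKM in every tumor. The summed level was 59.5, 40.1 and 41.0 FPKM. The most abundant was the mismatch repair gene Msh6, at 19.5, 13.4 and 10.1 FPKM. The repair factor Rif1 measured 8.17, 4.22 and 5.20 FPKM. Dividing cells of other types make both as well.

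Cytokines and ligands that act on B cells and plasma cells were mostly highest in tumor 1, as Jchain was. This held for 12 of 13 genes, and for 11 with median-of-ratios factors, against 49.5% of all genes above 0.2 FPKM in at least 1 tumor. The 13 genes were not filtered in this way, and some, such as Il5 with at most 0.106 FPKM, lay below 0.2 FPKM in every tumor. Some of these ranks rest on little, such as that of Il5, on 5, 0 and 1 reads, or of Cxcl12, at 3.28 FPKM in tumor 1 and 3.26 in tumor 2. Their median was 2.43 FPKM in tumor 1, and at the listed values 0.130 FPKM in tumor 2 and 0.105 FPKM in tumor 3, where 4 and 2 of them had no read, and 3 of them were above 0.2 FPKM in every tumor. The summed level was 44.7, 25.1 and 15.6 FPKM. Ifng, the cytokine of type 1 responses, measured 8.49, 1.10 and 1.12 FPKM on 338, 27 and 30 reads. Cxcl13, the chemokine that draws B cells into follicles, measured 7.87 and 0.688 FPKM in tumors 1 and 2 and had no read in tumor 3, which allows up to 0.126 FPKM. Tgfb1, which directs switching to IgA, was the exception with 13.2, 19.3 and 11.6 FPKM.

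Of the receptors for secreted antibody, the polymeric immunoglobulin receptor Pigr, which binds J chain, was all but absent, with 3, 4 and 0 reads. No read in tumor 3 allows up to 0.0359 FPKM at 3 reads. Fcmr, the IgM receptor of lymphocytes, followed the B-cell genes with 4.41, 1.15 and 7.65 FPKM. Fcgrt, the neonatal IgG receptor, measured 51.0, 46.9 and 71.8 FPKM, and its partner B2m, also part of MHC class I, was the most abundant of these 5 genes with 2327, 1573 and 1781 FPKM. Their median was 4.41, 1.15 and 7.65 FPKM, that of Fcmr, and their summed level was 2382, 1622 and 1861 FPKM.

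Transcripts of other cell types moved between the tumors as well. The 13 myeloid markers had medians of 20.7, 3.72 and 1.59 FPKM and a summed level of 513, 177 and 63.0 FPKM, and 12 of them were highest in tumor 1, also with either other scale, against 49.5% of all genes on the deposited scale. By its mean their most abundant gene was the lysozyme Lyz2, at 215, 33.1 and 20.3 FPKM. The gene not highest in tumor 1 was Cd68, which was highest in tumor 2 and above Lyz2 there, at 19.6, 51.2 and 9.27 FPKM. Tumor 2 was below tumor 3 for 3 genes, S100a8, S100a9 and Itgam, named after their values were seen. It was above tumor 3 for the other 10, against 57.9% of all genes. C1qa, a complement subunit made by macrophages, measured 74.5, 24.1 and 1.43 FPKM, and C1qb measured 64.4, 20.6 and 1.59 FPKM. No myeloid marker was without a read. Tumor 1 was thus highest in both myeloid transcripts and Jchain, and the part of these cells in the Jchain level was not tested. The 18 genes of the exocrine pancreas were all highest in tumor 2, against 35.8% of all genes, with medians of 4.47 and 24.0 FPKM and a summed level of 122 and 614 FPKM in tumors 1 and 2. The gene with their highest mean, Ctrb1, measured 33.9 and 198 FPKM in tumors 1 and 2, and in tumor 3 it was among 12 genes of the list without a read, which for Ctrb1 allows up to 0.165 FPKM, so no median is given there. Prss2 measured 14.9, 52.1 and 0.177 FPKM, and Cela2a measured 6.72, 50.7 and 0.196 FPKM. The part of this tissue in the Jchain level was not tested either. The 10 housekeeping genes had medians of 78.7, 129 and 111 FPKM and sums of 4789, 4497 and 6101 FPKM, without the order of Jchain. Among them Eef1a1 measured 2891, 2201 and 3813 FPKM, Actb 1114, 1434 and 1409 FPKM and Ppia 408, 308 and 370 FPKM.

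The genes whose pattern over the 3 tumors was most like that of Jchain at a pseudocount of 0.1 were in none of the lists. Likeness was the Euclidean distance between patterns of log2(FPKM + 0.1) centered on each gene's mean, over 11184 genes with a mean of at least 1 FPKM. The nearest were the nuclear pore gene Nup214 (29.2, 6.59 and 6.23 FPKM, distance 0.022), Gm44686 (0.047), Gm44777 (0.099), the interferon gamma receptor chain Ifngr2 (0.11) and the zinc finger gene Zfp983 (0.12). Within a distance of 0.5 lay 97 genes, or 0.867% of all. Of 120 genes of the lists with such a mean, 4 lay within it, namely the myeloid integrin Itgam (0.27), the stress sensor of the endoplasmic reticulum Atf6 (0.36), Xbp1 (0.39) and the T-cell surface gene Thy1 (0.39). No B-cell marker was among them. With only 3 tumors many genes share a pattern, and with a pseudocount of 1 none of the 5 nearest genes remained, and Ifng of the cytokine list was among the 5 that took their place.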

How the data were processed

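Total RNA of 3 Dnmt3b+/- PTCL was sequenced as paired ends. After trimming, the authors used STAR to place the reads on mm10, dropped those with a mapping quality below 50, among them reads that match several places, and deposited FPKM per gene made with SeqMonk. The reference is of another strain than the FVB tumors. Members and lists were chosen with earlier results of these data known. Symbols turned into dates (26) were restored, and of rows with the same symbol the one with the highest mean was kept. A gene with no read is listed at the value of 0.9 read, which gave the depth. GENCODE M21 exon lengths then gave reads per gene, whole within 0.02 read for 92.4% to 92.5% of the genes with a length in each tumor. That share includes the genes without a read, 42.3%, 45.9% and 48.3% in tumors 1, 2 and 3, which count as whole by definition. Where a gene's exon length differed from the annotation, its lowest value was taken as no read if that made its other values whole. No count model was fitted. A tumor's ratio or share was called at 4-fold or 66.7% (2/3), and a gene without a read was given a limit of 3 reads. The rule for genes named in the text took the members, the 3 genes of highest mean in each of 11 lists, 15 lineage genes, and the 5 genes nearest to Jchain, of which some are not reported here, and the highest variable segment of a tumor. Others were named after their values were seen, namely Cd7, Cd22, Cd68, Cd72, Creld2, Cxcl12, Il5, Ighj2, Igkj2, Igkj3 and Igkj5. So were Igll1, Atf6, Itgam, S100a8, S100a9, Ssr4, Thy1 and Trbv12-2. Class shares, ratios between members and patterns like Igkc or Ighm were not run, since only Jchain had a row. Alternatives were other scales, pseudocounts, filters, thresholds, and each tumor left out. Steps were tested on simulated data. Promoter sequence came from RefSeq. Scripts ran in Python 3.11.15 with matplotlib 3.10.9, SciPy 1.17.1, NumPy 2.4.6 and pandas 2.3.3.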

Additional observations from a re-analysis of the deposited data

How the results depend on the processing

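Tumor 1 had the highest Jchain value on all 3 scales. The mean of 393 FPKM became 2002 when each tumor was rescaled to sum to 1000000, a change of unit that raises every gene, 709 with the length of the coding transcript alone (chosen after seeing the data), and 182 to 500 with a tumor left out. The ratio of highest to lowest tumor, 4.56, stayed above 4 with a pseudocount of 1 and after rescaling, did not reach an 8-fold threshold, and was 3.997 with median-of-ratios factors and 1.04 to 4.56 with a tumor left out. The share of tumor 1 was 66.5% with those factors. Their log2 values were 0.12, -0.04 and -0.07, so that scale lowers tumor 1. Among all genes, 2293 reached 4-fold, against 6809 at 2-fold, 898 at 8-fold, 657 with a pseudocount of 1, 4029 after rescaling and 1046 to 1362 with a tumor left out. Genes with 1 tumor above 2/3 of the sum numbered 1920, and 5140 had 1 above 50%. Jchain per B-cell list median was 5.50-fold higher in tumor 1 than in tumor 3, and 9.66-fold per Cd79a, 10.7-fold per Mzb1 and 1.42-fold per Xbp1. For tumor 2 over tumor 3 it was 7.14-fold, and 2.05-fold per summed B-cell list, 1.29-fold per plasma cell list median and 1.05-fold per Xbp1. The cause of these differences was not tested. The ratio to the list median and its other divisors were chosen after seeing the data. Of 33 list medians, 26 moved by more than 1 SD between tumors with the mean in place of the median and 2 with median-of-ratios factors. After rescaling 29 did, which the change of unit fixes and which says nothing of their stability. No paired analysis was possible because there is 1 group. Counting error was small for Jchain and limits genes with few reads, such as Pigr and Tnfrsf17.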
